A study of Mus musculus with 8 samples.

Results

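The interferon-stimulated genes are a set of 34 mouse genes that cells switch on when an interferon binds its receptor. They were found as the noncontrol array probes that carry the name of a member, and each gene was read through its brightest probe. All 34 were on the array under 42 probes, 8 of them with 2 probes each, among 36413 named genes or transcripts in all. All 34 also entered the comparison, which covered 23780 genes or transcripts. These had a probe well above background on 3 or 4 arrays of either genotype. The filter dropped no member, and each of the 34 was well above background on all 8 arrays.

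The tissue was the carotid artery of the mouse, taken 14 days after a wire had been drawn through it to strip the endothelium, during growth of the neointima, a new inner layer of the vessel wall. Each genotype had 4 animals and each animal 1 array. All 8 mice were female, 6 weeks old and of mixed genetic background, ate a western-type diet and lacked apolipoprotein E (ApoE-/-), which raises plasma cholesterol. The control group was miR-126+/+/ApoE-/- and the target group miR-126-/-/ApoE-/-, and how the miR-126 allele was made is not given in the sources used here. The miRNA miR-126 is enriched in endothelial cells. Every animal was injured and lacked ApoE, so the comparison says nothing about an uninjured artery or one with normal cholesterol.

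Interferons are secreted proteins that warn cells of viruses and other nucleic acid or inflammatory danger. Type I interferons bind IFNAR1 and IFNAR2, and the kinases JAK1 and TYK2 then activate STAT factors. STAT2 and IRF9 take part in the complex that binds the interferon-stimulated response element in front of target genes. Interferon gamma, the type II interferon, is made mainly by T and NK cells, and its signal reaches genes through the gamma-activated site. In arteries both arms are active in macrophages, endothelial cells and smooth muscle cells during inflammation. The members cover both arms: 27 are chiefly type I targets with antiviral roles, and 7 are GTPases, immunoproteasome subunits and a peptide transporter that interferon gamma also drives strongly.

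Values are the log2 of the processed signal relative to the 75th percentile of its array, so 0 stands for a probe at the 75th percentile and a step of 1 for a doubling. Probes differ in binding, so a level is compared only between arrays and never between genes. The 75th percentile ran from 619.7 to 864.6 intensity units, between 55.9% and 61.5% of probes were well above background, and 0 spots were saturated. The 8 arrays shared 1 slide and correlated with each other at 0.959 to 0.987. Row 1 of the slide carried the miR-126+/+ mice and row 2 the miR-126-/- mice, so row and genotype cannot be told apart. No probe was named for miR-126 itself. Egfl7, whose intron holds miR-126, had levels of 5.88, 5.53, 5.81 and 5.90 in miR-126+/+ arrays and 6.07, 6.43, 6.14 and 6.40 in miR-126-/- arrays. The groups did not overlap, the difference of 0.48 ± 0.13 (SE) missed the threshold (limma, adjusted p = 0.257), and its probe is not known to lie in a deleted part, so it checks nothing about the labels. All 5 smooth muscle markers and all 6 endothelial markers passed the filter. So did 5 of 6 skeletal muscle and all 7 adipocyte markers, which come from other tissues. The filter passed 23780 of 36413 genes or transcripts, so passing it does not check the tissue label.

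A promoter element that many of these genes hold is shown first. The rule did not use it, but the members are known interferon targets. A high share therefore comes with the list and says nothing about these arrays. RefSeq promoter windows (GRCm38.p6, 250 bases before to 50 bases after the start of a transcript) were at hand for 26 of the 34 genes. The core of the interferon-stimulated response element was searched on both strands as GAAA, any 2 bases and GAAA again, which reads TTTC, any 2 bases and TTTC on the other strand. It was present for 14 of 26 members (53.8%) and for 1079 of 27025 genes with such a window (3.99%). A match was present for 8 of 12 members with a window that were highest on the array miR-126-/- 2, and for 6 of 14 others. A link between match and array was not tested. By the brightest probes, the first 4 stretches shown come from genes that were highest on that array, and the last pair from genes that were lowest on it. Each reads 5′ to 3′ on the gene's own strand and ends before the start of the transcript, and capitals mark the matches, which may overlap.
Ifit1, chr19:34640770-34640828, + strand: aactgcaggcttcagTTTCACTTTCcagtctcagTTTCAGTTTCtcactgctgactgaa
Ifit3, chr19:34583358-34583427, + strand: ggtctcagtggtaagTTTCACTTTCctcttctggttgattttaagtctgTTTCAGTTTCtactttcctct
Isg15, chr4:156200860-156200911, - strand: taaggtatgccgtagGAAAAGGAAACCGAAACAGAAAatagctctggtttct
Rsad2, chr12:26456538-26456587, - strand: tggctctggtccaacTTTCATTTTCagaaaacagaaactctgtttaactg
Oas1a, chr5:120907526-120907585, - strand: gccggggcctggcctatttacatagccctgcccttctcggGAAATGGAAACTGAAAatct
Bst2, chr8:71537568-71537617, - strand: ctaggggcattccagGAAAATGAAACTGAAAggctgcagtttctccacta

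The first match began 104 bases before the start in Ifit1, 156 in Ifit3, 78 in Isg15, 120 in Rsad2, 20 in Oas1a and 130 in Bst2. Isg15 held 3 matches, Rsad2 held 1, and the other genes shown held 2 each. Among the role groups, all 4 of the interferon-inducible GTPases held a match, as did both RNA sensors with a window (Ifih1 and Ddx58, though not wholly before the start), 2 of 3 Ifit genes and 2 of 4 Oas genes. The immunoproteasome and peptide transporter genes held none in 3. In all, 12 of the 26 held none, among them Ifit2, Oasl1 and Cmpk2, so the stretches shown are of matching genes and not of all members. The core of the gamma-activated site, TTC, any 3 bases and GAA, which is the same on both strands, was present for 6 of 26 members (23.1%) and for 9.55% of all genes. A match is a run of letters and not a shown binding site, and an empty window says only that the letters are not in these 300 bases.

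No member passed the test between genotypes. In the limma fit 0 of 34 passed an adjusted p of 0.05, where 27 of 23780 genes did (0.114%, made up of 0.0547% higher and 0.0589% lower in miR-126-/-), and the members' adjusted p-values ran from 0.472 to 0.99. At an unadjusted p under 0.05 there was 1 member, Oas3, beside 10.2% of all genes. For 0 of the 34 did the 4 miR-126+/+ and 4 miR-126-/- values fail to overlap, beside 6.43% of all genes. The differences, counted as miR-126-/- minus miR-126+/+, ran from -0.53 to 0.36 with a median of 0.02, beside a median of -0.0048 over all genes. In miR-126-/- arteries 18 members were higher and 16 lower (52.9% higher, beside 48.9% of all genes). That split rested on a pair of arrays: 10 members were higher without miR-126+/+ 1, and 8 without miR-126-/- 2. For 13 members the difference was under 0.1 in size. The 95% interval lay within ±1 log2 unit for 27 members (79.4%). The share was 82.0% of all genes and 91.7% of genes with a mean level above 0. A change of 2-fold or more is thus outside the interval for those 27 members and inside it for the other 7.

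**Figure D1:**
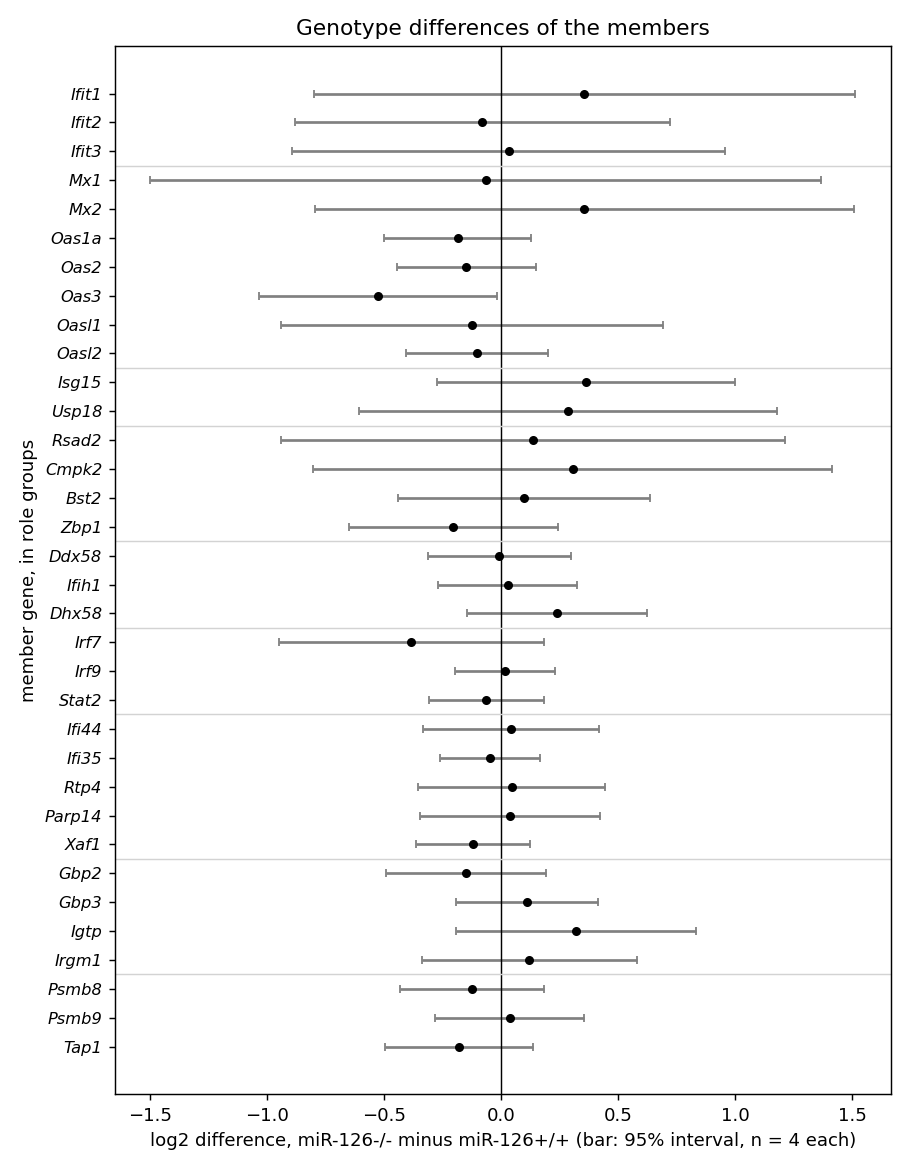
Genotype differences of the 34 members in role groups. The horizontal axis is the log2 difference, miR-126-/- minus miR-126+/+, points are the limma estimates and bars their 95% intervals (4 arrays per genotype). The points run from -0.53 (Oas3) to 0.36 (Isg15), and the longest bar is that of Mx1, from -1.499 to 1.37.

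The members varied between mice of the same genotype. Within miR-126-/- arteries, array 2 held the highest of the 4 values for 18 members (52.9%, beside 25.2% of all genes), and for 16 of the 34 it was the highest of all 8 arrays (beside 11.2% of all genes). Within miR-126+/+ arteries, array 1 held the lowest of the 4 values for 29 members (85.3%, beside 18.2% of all genes) and the highest for 0 (beside 17.9%). For 17 members it was the lowest of all 8 (beside 10.4%). The highest of 4 on miR-126-/- 2 and the lowest of 4 on miR-126+/+ 1 held together for 17 members. The share of all genes with both is not given here. Array miR-126-/- 3 held the highest value for 0 members, beside 26.2% of all genes, and the lowest for 12 (35.3%, beside 22.0%). The median deviation of the members from their own 8-array means was -0.29 on miR-126+/+ 1 and 0.16 on miR-126-/- 2, where the medians over all genes were 0.01 and 0.01. Under the 4 other scalings or sources of the values, 18 members were highest on miR-126-/- 2 and from 28 to 30 lowest on miR-126+/+ 1.

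**Figure D2:**
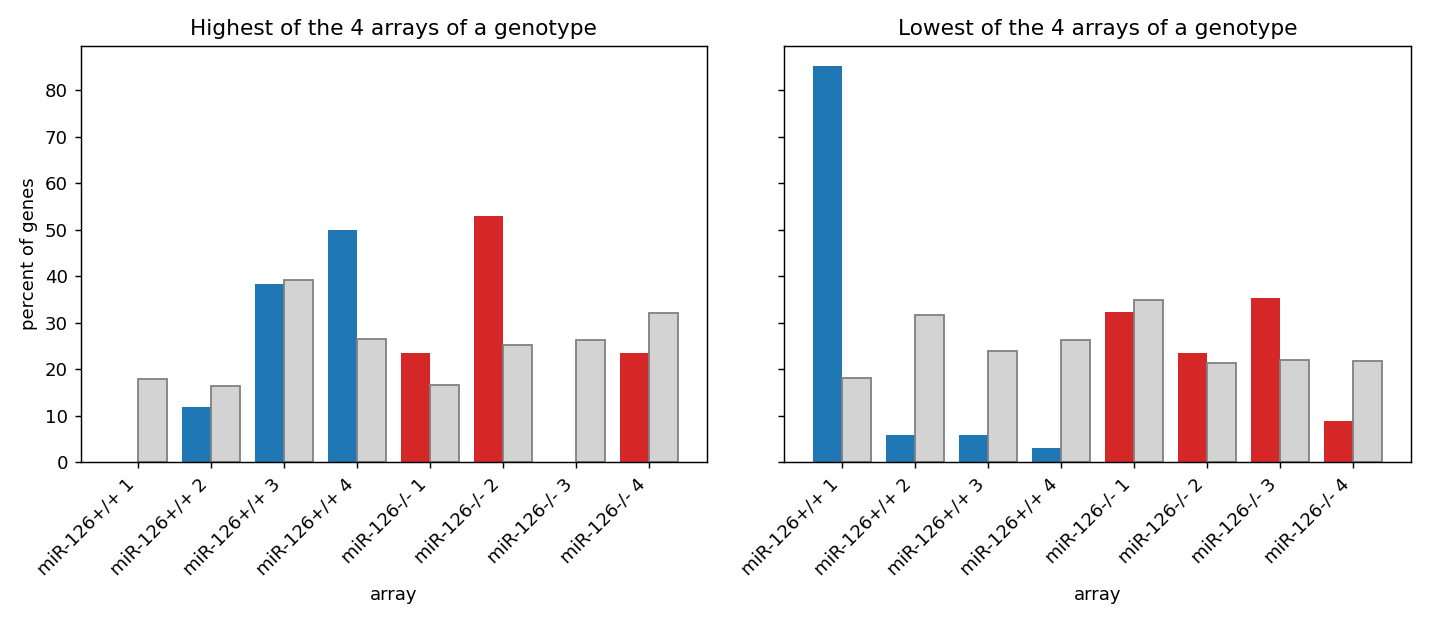
Share of genes whose highest (left) or lowest (right) value within a genotype fell on each array, in percent. Blue (miR-126+/+) and red (miR-126-/-) bars are the 34 members and grey bars all genes tested with a value on every array. The tallest bars are miR-126+/+ 1 among the lowest (85.3%) and miR-126-/- 2 among the highest (52.9%).

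The pattern was not shared by all members. Array miR-126-/- 2 was the lowest of its genotype, and of all 8 arrays, for 8 members (23.5% of members, beside 21.4% of all genes for the lowest of 4 and 9.71% for the lowest of 8), which were Oas1a, Oas2, Oas3, Bst2, Zbp1, Irf7, Psmb8 and Psmb9. Read by the brightest probes, this array therefore lay at the top for all 3 Ifit and both Mx genes. It lay at the bottom for 3 Oas genes, with the same RNA on the same array. The medians by group hide this split, since the Mx and Oas families together had a median deviation of -0.04 on miR-126-/- 2 and the Ifit family one of 1.04. Of the 8 genes at the bottom only Oas1a and Zbp1 had a second, dimmer probe, and neither was lowest on miR-126-/- 2. That of Oas1a was at 1.83 there and lowest on miR-126-/- 3 (1.72). That of Zbp1 was at 0.006 there, against -0.547 on miR-126-/- 3 and -0.555 on miR-126+/+ 1.

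**Figure D3:**
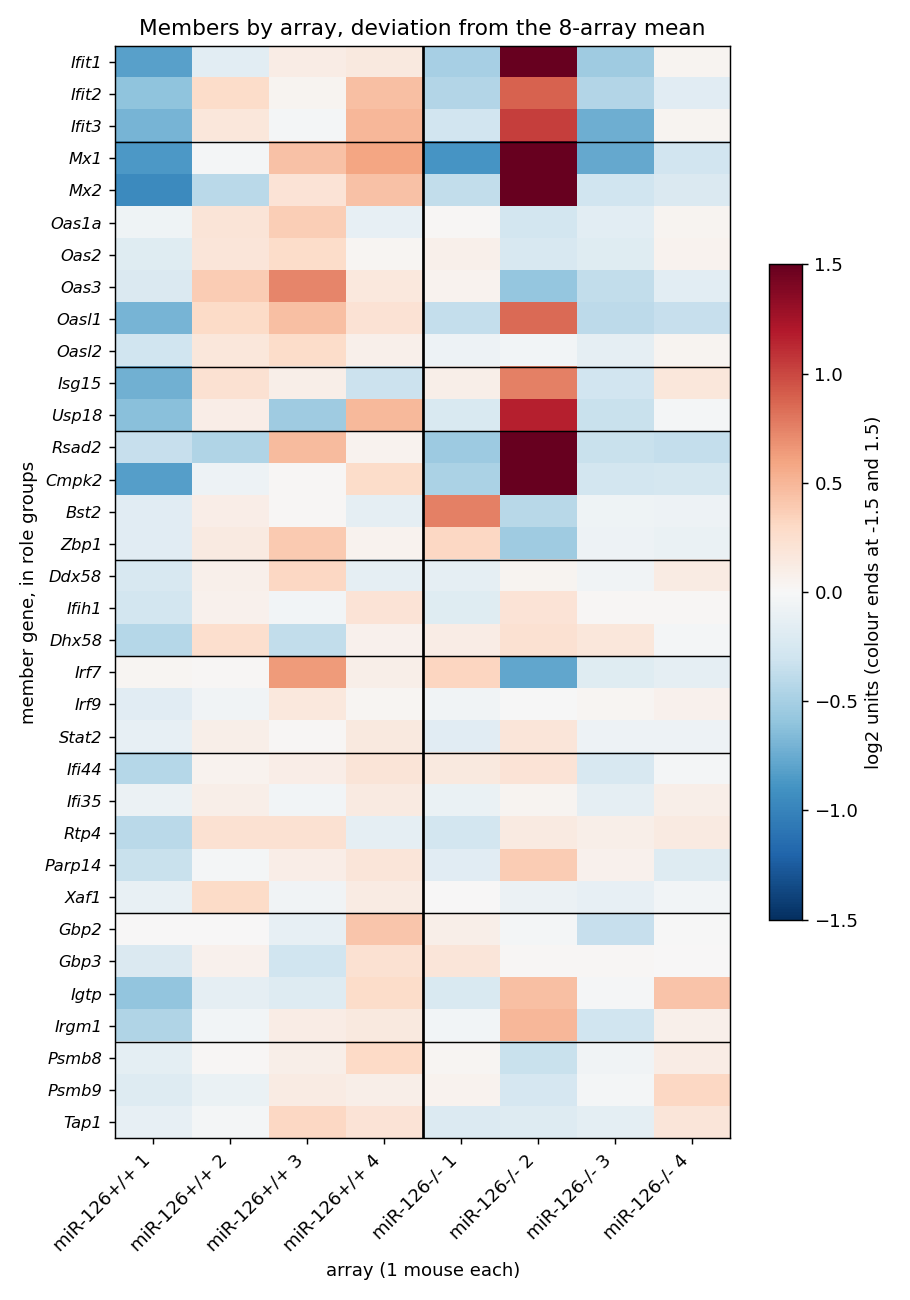
Deviation of each member (rows, in role groups) from its mean over the 8 arrays (columns, 1 mouse each), in log2 units, red above and blue below, with the colour ending at -1.5 and 1.5. The column of miR-126-/- 2 is darkest red for Ifit1, Mx1, Mx2, Rsad2 and Cmpk2 and blue for Oas3, Bst2, Zbp1 and Irf7, and the column of miR-126+/+ 1 is blue for most members.

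Of the Ifit proteins, Ifit1 binds viral RNA that lacks the cap methylation of the host and blocks its translation. Ifit1 had levels of -0.16, 0.50, 0.77 and 0.81 in miR-126+/+ arrays 1 to 4 and 0.16, 2.36, 0.13 and 0.70 in miR-126-/- arrays 1 to 4. In Ifit3 they were 2.09, 2.95, 2.76 and 3.29, against 2.50, 3.83, 2.06 and 2.83. Those of Ifit2 were -0.45, 0.43, 0.20 and 0.61, against -0.28, 1.05, -0.29 and -0.01. All 3 genes were lowest on miR-126+/+ 1 among the control arrays and highest on miR-126-/- 2 among all arrays, and the groups overlapped. The signal of Ifit1 on miR-126-/- 2 was 3.16-fold that of the next miR-126-/- array. The genotype differences of 0.36 ± 0.50 (SE) for Ifit1, -0.08 ± 0.35 for Ifit2 and 0.03 ± 0.40 for Ifit3 were smaller than their errors (limma, adjusted p from 0.865 to 0.988).

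Mx1 and Mx2 are dynamin-like GTPases that trap viral nucleocapsids. Mx1 had levels of -0.50, 0.33, 0.80 and 0.95 in miR-126+/+ and -0.52, 2.18, -0.41 and 0.07 in miR-126-/- arteries, and its value on miR-126-/- 2 was 4.30-fold that of the next miR-126-/- array. Mx2 had levels of -0.26, 0.28, 0.89 and 1.13, against 0.32, 2.28, 0.39 and 0.47. Both genes were lowest on miR-126+/+ 1 among the controls and highest on miR-126-/- 2 of all arrays, and the groups overlapped. Mx1 had the largest within-genotype standard deviation of any member (1.002, n = 4 per genotype). Its genotype difference of -0.07 ± 0.62 had a 95% interval from -1.499 to 1.37, which includes a change of 2-fold in either direction. That of Mx2 was 0.36 ± 0.50 (limma, adjusted p = 0.865).

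The Oas enzymes sense double-stranded RNA and make 2′-5′-linked oligoadenylates, which activate RNase L, an activity that Oasl1 lacks. Oas3 had levels of -1.14, -0.54, -0.19 and -0.76 in miR-126+/+ and -0.87, -1.49, -1.29 and -1.08 in miR-126-/- arteries. The groups overlapped, since miR-126+/+ 1 lay below miR-126-/- arrays 1 and 4. The difference of -0.53 ± 0.22 was the largest in size of any member (limma, adjusted p = 0.472). Oas1a had levels of 4.72, 4.96, 5.14 and 4.65, against 4.79, 4.50, 4.62 and 4.82, and a difference of -0.19 ± 0.14 (limma, adjusted p = 0.726). By the brightest probe both were lowest on miR-126-/- 2 of all 8 arrays, whereas the second probe of Oas1a was lowest on miR-126-/- 3. Oasl1, an inhibitor of Irf7 translation, had levels of 1.83, 2.81, 2.98 and 2.74, against 2.17, 3.37, 2.14 and 2.18. It was lowest on miR-126+/+ 1 and highest on miR-126-/- 2, and its genotype difference was -0.13 ± 0.35. Of the 7 Mx and Oas genes 1 was higher and 6 lower in miR-126-/- arteries, with a median difference of -0.13, and 0 passed. Oas2 and Oasl2, the remaining members, had standard deviations of 0.18 each and differences of -0.15 and -0.11.

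Isg15 is a ubiquitin-like protein that is joined to other proteins, and Usp18 removes it and also blocks signalling at IFNAR2. Isg15 had levels of 3.88, 4.84, 4.70 and 4.28 in miR-126+/+ and 4.69, 5.36, 4.32 and 4.77 in miR-126-/- arteries. Usp18 had levels of 0.83, 1.56, 0.93 and 1.94, against 1.22, 2.63, 1.12 and 1.43. Both were lowest on miR-126+/+ 1 and highest on miR-126-/- 2, and the groups overlapped. The differences were 0.36 ± 0.27 for Isg15 and 0.29 ± 0.39 for Usp18 (limma, adjusted p = 0.736 and 0.859). The dimmer second probe of Isg15 kept the order at both ends, with 0.34 on miR-126+/+ 1 and 1.63 on miR-126-/- 2, but its genotype difference was 0.00, so the 0.36 depends on the probe.

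Rsad2 (viperin) and Cmpk2, neighbours on chromosome 12, make and supply an antiviral nucleotide that ends viral RNA chains. Rsad2 had levels of 0.85, 0.75, 1.67 and 1.25 in miR-126+/+ and 0.65, 2.71, 0.87 and 0.84 in miR-126-/- arteries. Cmpk2 had levels of -0.89, -0.14, -0.04 and 0.21, against -0.54, 1.56, -0.35 and -0.32. Array miR-126-/- 2 stood 3.60-fold above the next array of its genotype in Rsad2 and 3.69-fold in Cmpk2, while the other miR-126-/- arrays lay within or below the control range. The second Cmpk2 probe showed the same, at 0.37 on miR-126-/- 2 and from -2.33 to -1.81 on the other miR-126-/- arrays. The genotype differences were 0.14 ± 0.47 and 0.30 ± 0.48 (limma, adjusted p = 0.947 and 0.881). Bst2 (tetherin), which holds budding virions at the cell surface, had levels of 4.50, 4.77, 4.69 and 4.54, against 5.43, 4.26, 4.61 and 4.60. Here miR-126-/- 1 was the high array and miR-126-/- 2 the lowest of all 8, with a difference of 0.10 ± 0.23. Zbp1 is a sensor of Z-form nucleic acid that can start necroptosis. By its brightest probe it was also lowest on miR-126-/- 2, at 1.41, where the other arrays ran from 1.77 to 2.34. Its dimmer probe was lowest on miR-126+/+ 1.

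**Figure D4:**
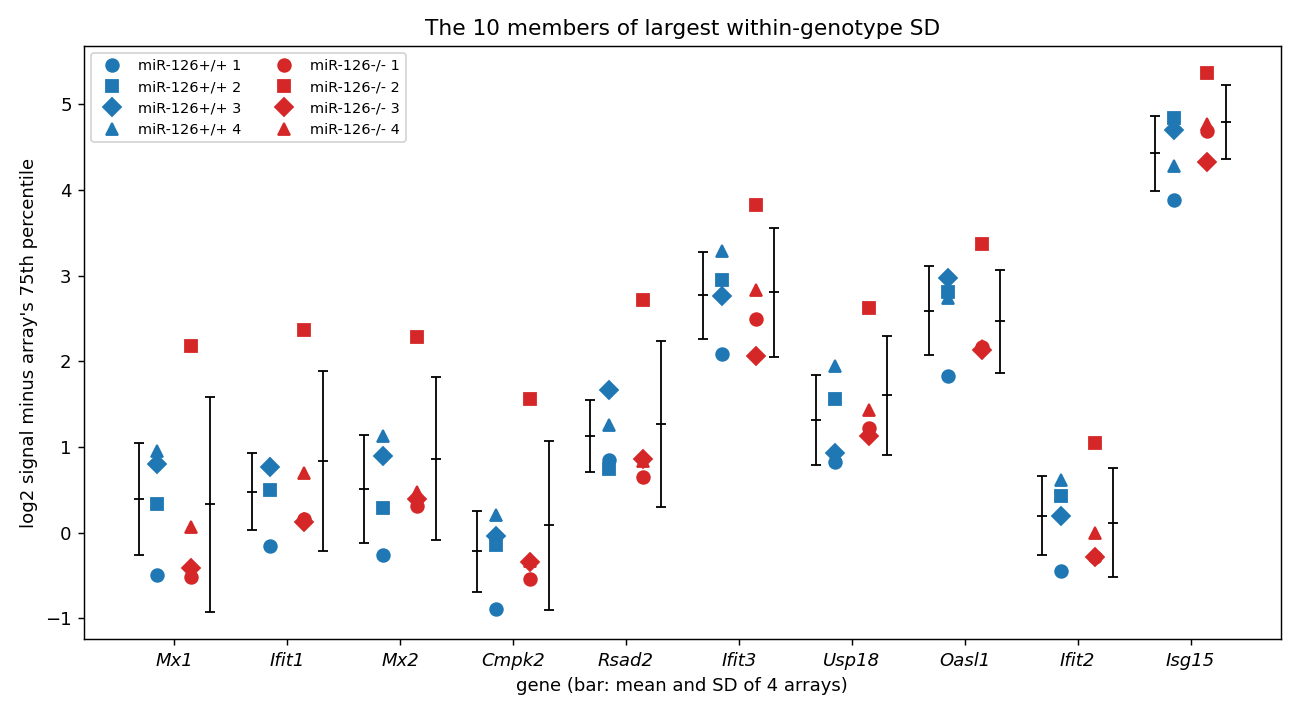
Levels of the 10 members with the largest within-genotype standard deviation, in log2 signal minus the array's 75th percentile, with 1 marker per array (blue miR-126+/+, red miR-126-/-) and bars for the mean and SD of 4 arrays. The red square (miR-126-/- 2) is the highest marker in all 10 genes, and the blue circle (miR-126+/+ 1) is the lowest control in all but Rsad2.

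The RNA sensors of the cytoplasm had standard deviations from 0.18 to 0.25. The median was 0.22 over all genes and 0.16 over genes with a mean level above 0. Ddx58 (RIG-I) had levels of 2.26, 2.58, 2.80 and 2.37 in miR-126+/+ and 2.37, 2.54, 2.45 and 2.62 in miR-126-/- arteries, a difference of -0.01 ± 0.13. Dhx58 (LGP2), which tunes the other sensors, had levels of -0.42, 0.26, -0.36 and 0.08, against 0.12, 0.23, 0.17 and -0.03. Its miR-126-/- values were close together and inside the control range, with a difference of 0.24 ± 0.17 (limma, adjusted p = 0.705). The difference of Ifih1 (MDA5) was 0.03 ± 0.13, and it was highest on miR-126-/- 2 by a small margin, since its range within a genotype was at most 1.39-fold. Of the transcription factors, Irf9 and Stat2, the partners in the type I complex, were among the steadiest members, with standard deviations of 0.11 and 0.13. Irf9 had levels of 2.81, 2.93, 3.14 and 3.01, against 2.93, 2.97, 3.01 and 3.05, and a difference of 0.02 ± 0.09. Irf7, which amplifies type I interferon production, had levels of 1.98, 1.97, 2.59 and 2.05, against 2.28, 1.18, 1.77 and 1.82. Its lowest value was on miR-126-/- 2, where Ifit1 and Mx1 were at their highest, and its difference of -0.38 ± 0.25 did not pass (limma, adjusted p = 0.673).

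The other induced genes had a median standard deviation of 0.24, beside 0.22 over all genes and 0.16 over genes with a mean level above 0. Rtp4, a chaperone of membrane receptors that limits flaviviruses, had levels of 3.81, 4.44, 4.44 and 4.08 in miR-126+/+ and 3.94, 4.35, 4.30 and 4.35 in miR-126-/- arteries, a difference of 0.05 ± 0.17. It was lowest on array 1 of each genotype. Ifi44, Ifi35, Parp14 and Xaf1 had differences from -0.12 to 0.04 and standard deviations from 0.10 to 0.25. By the brightest probes all 4 were lowest on miR-126+/+ 1 among the controls. Xaf1, which opposes an inhibitor of apoptosis, had a second, dim probe with a difference of 0.38, where the brightest probe gave -0.12. That dim probe was lowest among the controls on miR-126+/+ 3 (-4.02), against -3.50 on miR-126+/+ 1.

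Among the 7 members that interferon gamma also drives, 4 were higher and 3 lower. Their median difference was 0.04 and their median standard deviation 0.20, beside 0.30 for the other 27 members. The guanylate binding proteins and the immunity-related GTPases attack vacuoles that hold bacteria or parasites. Gbp2 had levels of 2.81, 2.81, 2.68 and 3.22 in miR-126+/+ and 2.89, 2.77, 2.46 and 2.79 in miR-126-/- arteries, a difference of -0.15 ± 0.15. Igtp had levels of 2.08, 2.54, 2.48 and 2.95, against 2.45, 3.12, 2.66 and 3.097, a difference of 0.32 ± 0.22 (limma, adjusted p = 0.705). In all 4 GTPases the highest miR-126+/+ value was on array 4, and Igtp and Irgm1 were highest on miR-126-/- 2. Gbp3 and Irgm1 had differences of 0.11 and 0.12. Psmb8 and Psmb9 are catalytic subunits of the immunoproteasome, and Tap1 carries the resulting peptides to MHC class I. Psmb8 had levels of 3.62, 3.80, 3.86 and 4.07, against 3.81, 3.44, 3.72 and 3.88. Tap1 had levels of 0.09, 0.18, 0.52 and 0.42, against 0.00, 0.02, 0.06 and 0.40. All 3 genes were highest on miR-126-/- 4 within its genotype, where the Ifit and Mx genes were highest on miR-126-/- 2. Their differences were -0.13 ± 0.13 for Psmb8, 0.04 ± 0.14 for Psmb9 and -0.18 ± 0.14 for Tap1 (limma, adjusted p from 0.735 to 0.952).

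The size of the spread within a genotype separated the members from each other. Over all 34 the median pooled standard deviation was 0.25, beside 0.22 over all genes and 0.16 over genes whose mean level was above 0, as that of 32 members was. By role group the medians were 0.64 for the Ifit family, 0.56 for the antiviral effectors, 0.53 for the Isg15 system, 0.34 for the Mx and Oas families, 0.26 for the GTPases, 0.24 for other induced genes, 0.19 for the RNA sensors and for antigen processing, and 0.13 for the transcription factors. In the top 10% of all genes (standard deviation above 0.627) lay 6 members, Mx1, Ifit1, Mx2, Cmpk2, Rsad2 and Ifit3. Without miR-126-/- 2 there were 0, and the standard deviation went from 1.002 to 0.54 for Mx1 and from 0.75 to 0.33 for Rsad2. The highest and lowest of the 4 miR-126-/- arrays differed by at least 2-fold for 12 members, beside 13.8% of all genes, and for 0 without miR-126-/- 2, beside 11.2%. In miR-126+/+ arteries the same count was 7 members, beside 20.03% of all genes. It was 1 without miR-126+/+ 1, beside 17.3% of all genes, and 3 without miR-126+/+ 4, beside 14.3%. The spread was larger in miR-126-/- than in miR-126+/+ arteries for 18 members, beside 37.0% of all genes. Without miR-126-/- 2 it was larger for 4 members, again beside 37.0%.

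**Figure D5:**
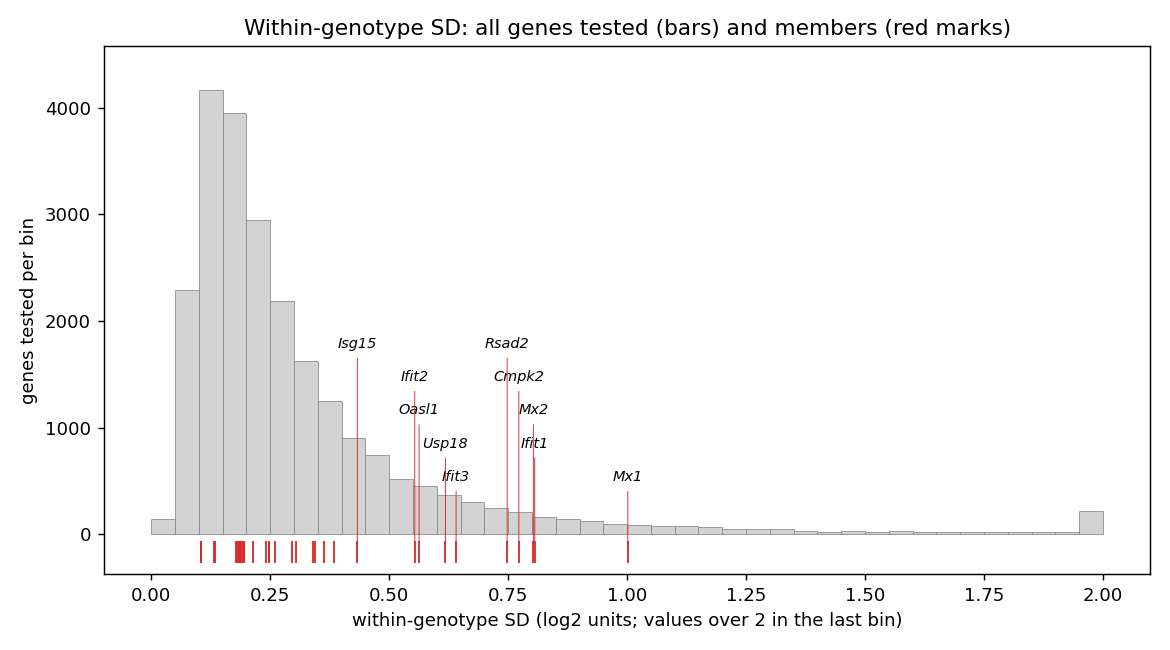
Within-genotype standard deviation in log2 units (horizontal) of all genes tested, as bars counting genes per bin, with the 34 members as red marks and the 10 largest named. Most members sit near the all-gene median of 0.22, where genes with a mean level above 0 have a median of 0.16. Mx1 lies farthest right at 1.002.

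The wider pathway was read from 6 further lists of 84 names, of which 78 were on the array and 74 were tested. In miR-126-/- arteries 34 were higher and 40 lower, 0 passed the adjusted threshold, and 5 had an unadjusted p under 0.05 (limma), a smaller share than the 10.2% of all genes. Of 10 ligands 5 were tested. Ifnb1, interferon beta, was not well above background on any of the 8 arrays, and neither Ifna4, Ifne nor Ifnk passed the filter. Ifna2 had a difference of -0.50 ± 0.22 (limma, adjusted p = 0.489) and was well above background on 4 miR-126+/+ and 3 miR-126-/- arrays. Ifng had one of -0.01 ± 0.32 and was well above background on 3 and 4 arrays. Ifna1 and Ifna5 were well above background on all 8 arrays, but the Ifna genes are near-identical copies, so a probe may read more than the gene it is named for.

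All 9 receptors and kinases were tested, with 3 higher and 6 lower. The type I receptor chain Ifnar1 had a difference of -0.02 ± 0.10, the gamma receptor chain Ifngr1 one of 0.18 ± 0.11 and the kinase Jak1 one of -0.19 ± 0.14. Of 8 STAT and IRF factors 4 were higher and 4 lower. Irf1, an early target of gamma signalling, had a difference of 0.15 ± 0.13. Irf4, a factor of lymphocytes and plasma cells, had the smallest unadjusted p of that list (0.75 ± 0.28, limma, adjusted p = 0.412). Of 12 adaptors and kinases of nucleic acid sensing 4 were higher and 8 lower. Mavs, the adaptor of Ddx58 and Ifih1, had a difference of 0.44 ± 0.15 (limma, adjusted p = 0.355), with no overlap of the groups. Tbk1 and Traf3, which act after it, had -0.17 ± 0.08 and -0.25 ± 0.12, and Tbk1 did not overlap either, in the opposite direction. Of 9 negative regulators 2 were higher and 7 lower, among them Socs3 at -0.50 ± 0.38.

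A further 31 induced genes that are not members were tested, with 20 higher, 11 lower and a median difference of 0.06. Trim25, the ubiquitin ligase of Ddx58, had a difference of 0.26 ± 0.10 (limma, adjusted p = 0.429) and the GTPase Irgm2 one of 0.53 ± 0.23 (limma, adjusted p = 0.487). Their mean deviation was lowest on miR-126+/+ 1 (-0.29) and highest on miR-126-/- 2 (0.20), the same end arrays as for the members.

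Likeness was measured as the root mean square distance over the 8 arrays after centring on genotype means and scaling to unit SD. The genes outside these lists nearest to the mean of the 27 type I members were Sgk1 (0.261), BB166591 (0.268), Gm14446 (0.278), Gm9706 (0.296) and I830012O16Rik (0.297). Sgk1, a kinase of ion transport and cell survival, had levels of 2.995, 3.38, 3.53 and 3.47 in miR-126+/+ and 3.33, 3.77, 2.99 and 3.21 in miR-126-/- arteries. Gm14446 and I830012O16Rik carry the RefSeq symbols Ifit1bl1 and Ifit3b and belong to the Ifit family. I830012O16Rik had levels of 0.36, 1.002, 1.04 and 1.31, against 0.63, 1.83, 0.16 and 0.71, which is nearly the course of Ifit3. The probes of such close relatives may bind each other's transcripts, which was not tested. Among the members themselves Oasl1 (0.175) and Irgm1 (0.229) lay nearest to that mean, of which Oasl1 is a part and Irgm1 is not, and Bst2 and Irf7 (1.52 each) farthest.

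Several members are neighbours in the genome, and their end arrays are given with the probe positions of the file headers (mm9), as a description with no test. Ifit2 (chr19:34650244-34650303), Ifit3 (chr19:34663105-34663164) and Ifit1 (chr19:34723796-34723855) had the same highest and lowest array in each genotype. So did Mx1 (chr16:97668644-97668703) and Mx2 (chr16:97782327-97782386). Rsad2 (chr12:27127859-27127918) and Cmpk2 (chr12:27164119-27164178) agreed at both ends in miR-126-/- and at neither end in miR-126+/+ arteries. By the brightest probes Oas2 (chr5:121180343-121180402), Oas3 (chr5:121203598-121203657) and Oas1a (chr5:121346735-121346794) were all highest on miR-126+/+ 3 and lowest on miR-126-/- 2. Oas1a differed from the other pair at the remaining ends. Its second probe shared neither of the common ends, being highest among controls on miR-126+/+ 2 (2.32) and lowest on miR-126-/- 3 (1.72). Oasl2 (chr5:115362168-115362227) and Oasl1 (chr5:115387861-115387920) agreed at 3 ends and had different highest miR-126-/- arrays, 4 and 2. Gbp3 (chr3:142236032-142236091) and Gbp2 (chr3:142300719-142300778) also agreed at 3 ends and had different lowest miR-126-/- arrays. Psmb9 (chr17:34319174-34319233), Tap1 (chr17:34330854-34330913) and Psmb8 (chr17:34337771-34337830), which lie within the MHC, were all lowest on miR-126+/+ 1 and highest on miR-126-/- 4, while Tap1 had another lowest miR-126-/- array and Psmb8 another highest control. The labels give a mixed genetic background, and which alleles each mouse carried at these loci is not given in the sources used here.

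Markers of other cells were read on the same arrays. In whole tissue, fewer cells of a type and less RNA per cell cannot be told apart. Of 12 marker lists 0 were both lowest on miR-126+/+ 1 among the controls and highest on miR-126-/- 2 within its genotype. The smooth muscle (5 of 5 markers tested) and endothelial (6 of 6) lists were highest on miR-126-/- 2, with mean deviations of 0.45 and 0.26, and their part in the members' pattern was not tested. Across the arrays those lists ran from -0.35 to 0.05 and from -0.28 to 0.01 in miR-126+/+, and from -0.27 to 0.45 and from -0.05 to 0.26 in miR-126-/- arteries. The macrophage list (8 of 9) was at 0.02 on miR-126+/+ 1 and -0.19 on miR-126-/- 2, and ran from -0.11 to 0.38 and from -0.23 to 0.21. The list of plasmacytoid dendritic cells (7 of 7), the richest makers of type I interferon, was at -0.32 and -0.09 on that pair of arrays, and ran from -0.60 to 0.78 and from -0.28 to 0.54. NK markers (6 of 7, with Klrk1 not passing the filter) ran from -0.28 to 0.74 and from -0.54 to 0.08. T cell markers (9 of 9) were highest on miR-126-/- 4 (1.53) and ran from -0.78 to 0.68 in miR-126+/+ and from -0.43 upward in miR-126-/- arteries. B and plasma cell markers (5 of 7, with Cd79a not passing the filter) were also highest there (1.30), running from -0.82 to -0.39 and from -0.13 upward, with -0.71 on miR-126+/+ 1 and 0.45 on miR-126-/- 2. Array miR-126-/- 4 was the highest of its genotype for 8 members (23.5%, beside 32.1% of all genes), namely Psmb8, Psmb9, Tap1, Oas1a, Oasl2, Ddx58, Irf9 and Ifi35. The second probe of Oas1a was also highest there. That of Ddx58 was instead lowest of its genotype there (-1.75) and highest on miR-126-/- 2 (-1.51). The part of lymphocytes in these members was not tested. All 7 adipocyte markers were higher in miR-126-/- arteries, running from -1.08 to 0.06 and from 0.17 to 0.96, with -0.98 on miR-126+/+ 1 and 0.68 on miR-126-/- 2. Skeletal muscle markers (5 of 6) varied most, from -2.41 to 3.17 and from -2.003 to 3.36, with -2.03 and 0.91 on that pair of arrays. The part of the B cell, adipocyte and skeletal muscle lists in the members' pattern was not tested. With the adipocyte mean as a covariate 7 members were higher and 27 lower. The median difference was then -0.24, beside -0.0075 over all genes, and 0 members passed the adjusted threshold (limma). Since the adipocyte means of the genotypes did not overlap, covariate and genotype can hardly be told apart in that fit.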

How the data were processed

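Total RNA (100 ng per artery) was labelled (Cy3) and put on Agilent arrays, per the labels' protocols. The arrays were read with Agilent Feature Extraction 10.7.3.1, per the submitters' processing notes. Per the file headers, each deposited intensity is a background-subtracted processed signal on a linear scale. Control spots and outlier spots (146 to 216 per array) were left out, spots of a probe were averaged, and log2 values were centred on the array's 75th percentile over noncontrol spots. The value table that the authors deposited repeats these intensity values, with a median log2 difference of 0 on each array and column medians from 41.7 to 57.5, and served as an alternative. Its stated scale and centring were not given in the sources used here.

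Of 55681 probes 32486 were well above background on at least 3 of 4 arrays of a genotype, and the brightest probe stood for each of 23780 genes. A dim probe or splice form therefore does not enter, and shares over all genes in the text on extreme arrays rest on the 23741 with a value on every array. The genotype fit used limma 3.58.1 (lmFit, then eBayes) under R 4.3.3 without covariates, had 6 residual degrees of freedom and was two-sided, with Benjamini-Hochberg adjustment over all 23780 genes and a threshold of 0.05. Standard deviations within a genotype, counts of highest and lowest arrays and medians over members are descriptions with no test. Promoter windows and symbols came from RefSeq tables (GRCm38.p6), used for no coordinate but those of the windows. On data simulated from these 23780 genes, 61.6% of genes changed by 1 log2 unit and 84.4% of those changed by 2 were recovered, with 100 changed genes of each size and 6.2 false calls per run. The changed genes were drawn at random and the noise was independent between genes. The rates therefore do not describe the members of largest standard deviation, which moved together by array. The number of arrays limits the precision.

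The members and lists were chosen with earlier results of these data known. Levels on every array are given for the 6 members with the smallest p, the 10 with the largest standard deviation and the brightest of each of the 9 role groups, 22 in all. Zbp1, Ifi44 and the other members are given by ranges. Of each pathway list up to 3 genes with the smallest p are named, beside Irf1, Ifnar1, Ifnb1 and Ifng. Not every gene under this rule is reported here. Ifna1, Ifna5 and genes below background were named after their values were seen. The 5 nearest genes were ranked among genes with at least the members' median standard deviation. There were 13 other settings and 8 fits that left out an array each. Tables and figures were made in Python 3.11.15 (pandas 2.3.3, numpy 2.4.6, matplotlib 3.10.9).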

Additional observations from a re-analysis of the deposited data

Results flagged for a closer look

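In each genotype the gap between the highest or lowest of the 4 arrays and its nearest neighbour was divided by the whole range, for each of the 34 members. In 8 of 68 such groups this ratio passed Dixon's 95% limit, which is set so that about 1 of 20 groups of normal values pass it. The share over all genes was not counted, and members that move together by array are not separate groups. No excess is therefore read from the 8. Array miR-126-/- 2 was the high one in 4 of them, at 0.92 for Mx2, 0.962 for Oasl1, 0.895 for Rsad2 and 0.899 for Cmpk2. These 4 are antiviral genes of the type I arm, and they are not independent of each other, since they share the array. In the other 4, Irf7 stood high on miR-126+/+ 3 (0.874), Rtp4 low on miR-126-/- 1 (0.872), Gbp3 high on miR-126-/- 1 (0.91) and Tap1 high on miR-126-/- 4 (0.843).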

How the results depend on the processing

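Under all 21 alternatives 0 members passed the adjusted threshold, with a smallest adjusted p of 0.397 (limma). At an unadjusted p under 0.05 the count of 1 became 0 with normexp background correction, with the deposited table, with array weights and with a covariate for adipocyte content (the mean of that marker list), and ran from 0 to 2 with an array left out. The median difference of 0.02 became -0.24 with the adipocyte covariate (-0.0075 over all genes) and 0.12 with array weights, and ran from -0.09 to 0.06 with an array left out. The count of 18 higher members became 7 with that covariate and 22 with array weights, and ran from 8 to 21 with an array left out. The median standard deviation ran from 0.23 to 0.27 with an array left out. Of the 22 members given by array, 19 changed sign under some alternative and 3, Oas3, Isg15 and Tap1, under none. With normexp Ddx58 became 0.11, Gbp2 0.026 and Psmb8 0.023. Ddx58 was also above 0 with the deposited table (0.0042) and the mean of probes (0.057). With array weights Ifit2 became 0.16, Mx1 0.37, Oasl1 0.17 and Ddx58 0.068. With the adipocyte covariate Ifit1 became -0.31, Ifit3 -0.81, Mx2 -0.37, Oas1a 0.068, Usp18 -0.75, Cmpk2 -0.41, Ddx58 0.036, Dhx58 -0.15, Irf7 0.15, Irf9 -0.034, Rtp4 -0.12 and Igtp -0.49. The adipocyte means of the genotypes did not overlap, so that covariate and genotype can hardly be told apart. The cause of the changes was not tested. With an array left out the range was -0.15 to 0.59 for Ifit1, -0.39 to 0.058 for Ifit2, -0.31 to 0.28 for Ifit3, -0.68 to 0.22 for Mx1, -0.12 to 0.56 for Mx2, -0.43 to 0.0037 for Oasl1, -0.056 to 0.49 for Usp18, -0.35 to 0.34 for Rsad2, -0.19 to 0.51 for Cmpk2, -0.14 to 0.25 for Bst2, -0.088 to 0.092 for Ddx58, -0.039 to 0.073 for Irf9 and -0.083 to 0.14 for Rtp4. Over all genes the count past the adjusted threshold, 27 here, was 69 with array weights, 11 with quantile normalization or no filter, 12 with the deposited table, 6 with probes above background on all arrays, 10 with the mean of probes, 13 with every probe on its own, 18 with an intensity trend, 0 with the adipocyte covariate (1080 at an unadjusted p under 0.05) and from 0 to 51 with an array left out. The replicate numbers in the labels follow the slide column, and whether they pair the mice is not given in the sources used here. Correlations of deviations between arrays of the same number were 0.20, -0.28, -0.04 and 0.007 for numbers 1 to 4. Only 1 of 4 miR-126+/+ arrays correlated best with its own number. Such values gave no sign of a pairing but cannot show that there was none. With the replicate block 0 of all genes and 0 members passed in limma, with 2179 genes and 1 member, Igtp, at an unadjusted p under 0.05. Of the 34 members 0 had a spot in a dim area of array miR-126-/- 4, and 4 mice a group leave intervals that reach beyond a 2-fold change for 7 members.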
